A study of Mus musculus with 25 samples.

Results

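The change between naive mice and day 7 of experimental autoimmune encephalomyelitis (EAE) was examined in CD4 T cells labelled as miR-150 knock-out. The comparison holds the 4 libraries whose titles mark a miR-150 knock-out mouse at day 7 and the 4 that mark a naive knock-out mouse, 8 of the 25 libraries in the series. All mice were of the strain C57BL/6NTac and the CD4 T cells were sorted before RNA was extracted. The 6 groups were knock-out day 7 (4 libraries), knock-out naive (4), knock-in day 7 (4), knock-in naive (4), wild-type day 7 (5) and wild-type naive (4). Both groups compared carry the knock-out, and the labels set them apart as EAE day 7 and naive. The labels do not say that both were collected and handled alike. Any such difference cannot be told apart from that of EAE induction. The organ, the age of the mice, the antigen and adjuvant, the knock-out allele and the content of the knock-in are not stated in the labels. The labels do not say that the libraries came from separate mice. The p-values below therefore measure the spread between libraries, which may be technical in part. Replicates were numbered in accession order, and the labels do not pair a day 7 library with a naive one of the same number.

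EAE is an animal model of multiple sclerosis in which CD4 T cells primed against myelin enter the central nervous system. In the days after induction such cells are primed in lymphoid organs, and signs of disease usually come later. miR-150 is a small RNA that is abundant in resting mature lymphocytes and falls when they are activated, and its best known target is the transcription factor gene Myb. T cells that receive a receptor or stress signal transcribe immediate early genes within minutes, among them the subunits of the transcription factor AP-1 (Fos and Jun proteins). The same signals induce proteins that end the response, such as phosphatases of MAP kinases and proteins that destroy short-lived mRNAs.

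The targeted gene Mir150 had 0 counts in all 8 knock-out libraries. The mature microRNA was not measured separately. A count of 0 allows up to 0.0315 CPM (counts scaled to library size) over the day 7 libraries together and 0.0266 CPM over the naive ones. Mir150 lay between 9.08 and 29.2 CPM in knock-in libraries and between 12.4 and 25.7 CPM in wild-type libraries. Total counts ranged from 9800746 to 49489134 in day 7 libraries and from 13917799 to 43640843 in naive libraries. Ribosomal RNA took 18.2 ± 2.08% of counts at day 7 and 17.1 ± 0.616% in naive libraries (SD, n = 4 each), a difference within the spread (exact permutation test, two-sided, p = 0.4, the smallest possible p being 0.0286). Day 7 replicate 3 was the deepest library, had the highest ribosomal share at 20.9%, and received the lowest quality weight in limma voom, 0.144. All 9 CD4 T cell markers were tested and none was called. Their mean log2 level, over the genes' log2(CPM + 0.5), was 7.96, 7.88, 7.85 and 7.90 in the day 7 libraries, against 7.86, 7.88, 7.80 and 7.84 in the naive libraries. Cd4 itself had 547, 512, 582 and 503 CPM at day 7, against 486, 519, 449 and 474 CPM in naive cells. Naive replicate 4 had the highest levels of B cell, CD8 T and NK cell, and red cell markers, and naive replicate 1 the highest levels of interferon-stimulated genes. Day 7 replicate 2 had the highest levels of mitosis, T cell activation and Th17 genes.

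At day 7 a small set of genes differed in knock-out cells. AP-1 subunits and some other immediate early and feedback genes were among those that were higher. Interferon-induced and antigen presentation genes were among those that were lower. Of 14703 genes tested, 38 were higher at day 7 (0.258% of those tested) and 32 were lower (0.218%), 70 in all (0.476%), at an adjusted p below 0.05 in edgeR's quasi-likelihood test. In 68 of these 70 genes the day 7 and naive libraries did not overlap, the exceptions being Dbf4 and Mog, while 745 of all genes tested (5.07%) had libraries that did not overlap. Over all genes tested the median log2 fold change was -0.0027, with 7276 values above 0 and 7426 below. Most changes were small. The genes called higher had a median log2 fold change of 0.65 and 15 of them exceeded 2-fold, whereas those called lower had a median of -0.52 and 2 of them, Sdc3 and Tgtp2, exceeded 2-fold. All 70 kept their direction in each of the up to 18 alternative fits in which they were tested, 13 were called in every one of those fits, and 20 were called without each knock-out library in turn.

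**Figure D1:**
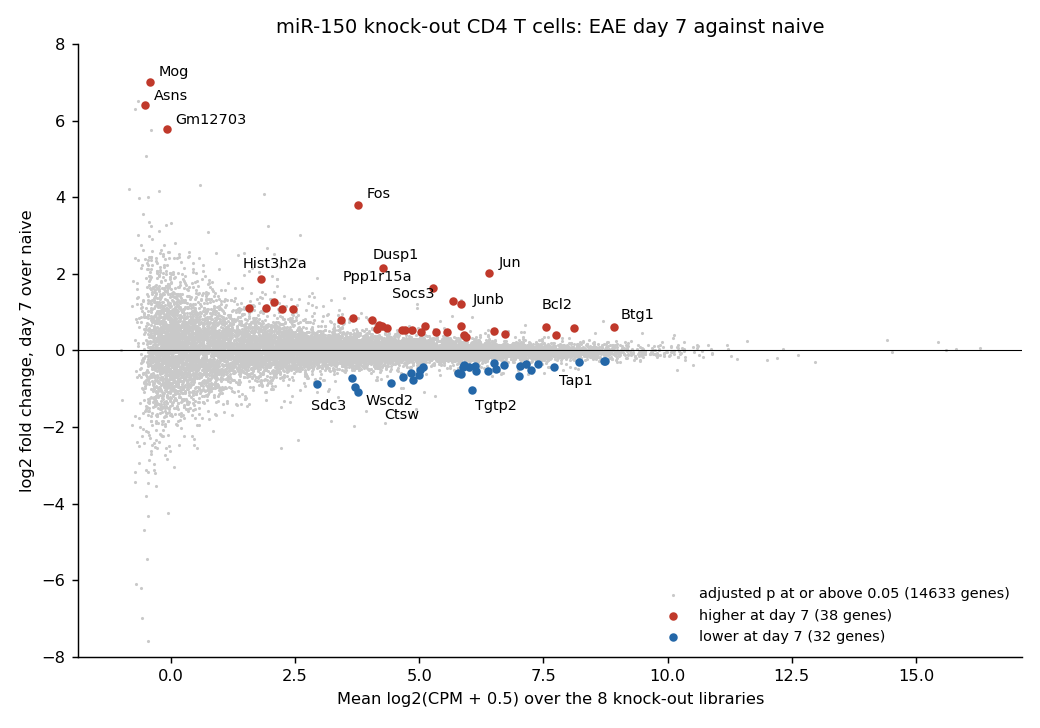
The log2 fold change of each of the 14703 genes tested, day 7 over naive in knock-out cells (vertical axis), against its mean log2(CPM + 0.5) over the 8 knock-out libraries (horizontal axis). Red points are the 38 genes called higher, blue points the 32 called lower and grey points the rest; the fitted values of Mog, Asns and Gm12703, which had no or almost no naive reads, depend on the prior count and are no measured size.

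Fos, Jun, Junb and Jund, subunits of AP-1, were higher at day 7. They are the 4 members called among 9 subunit genes tested, of which none was called lower and 8 had positive values. Of all genes tested, 0.258% were called higher and 49.5% had positive values. The median log2 fold change of the 9 subunit genes was 1.21, against -0.0027 over all genes. Junb, a Jun-type subunit needed for Th17 differentiation, had 90.8, 72.5, 98.3 and 87.1 CPM in the day 7 libraries, against 36.5, 34.2, 39.2 and 41.2 CPM in the naive libraries. The lowest day 7 library lay well above the highest naive one (log2 fold change 1.21, SE 0.11, adjusted p = 2.68e-08). Fos had 25.7, 34.4, 105 and 42.8 CPM at day 7, against 4.11, 2.13, 4.59 and 4.07 CPM in naive cells (log2 fold change 3.79, SE 0.57, adjusted p = 0.00248). All 4 day 7 libraries stood above every naive one, with day 7 replicate 3 far above the other three. Jun had 138, 149, 231 and 186 CPM in the day 7 libraries, against 55.0, 49.9, 23.8 and 43.8 CPM in the naive libraries, again without overlap (log2 fold change 2.03, SE 0.33, adjusted p = 0.00474). Jund, the subunit that resting cells also express, had 223.6, 186, 301 and 228 CPM at day 7, against 162, 156, 153 and 140.3 CPM in naive cells (log2 fold change 0.62, SE 0.12, adjusted p = 0.0201). The call on Jund was lost with naive replicate 3 left out (adjusted p = 0.0749) or with naive replicate 4 left out (adjusted p = 0.058), in limma voom (0.058) and with sets of library numbers as a block (0.0541). That on Fos was lost in limma voom (adjusted p = 0.0717) and in the fit of the knock-out groups alone (0.0929), and that on Jun in the fit of the knock-out groups alone (adjusted p = 0.0931). Without naive replicate 3 or naive replicate 4, therefore, 3 subunits were called in place of 4, and without day 7 replicate 2 there were 5. Further members had positive log2 fold changes that did not pass, Fosb with 2.68 (adjusted p = 0.115), Maff with 1.28 (adjusted p = 0.18) and Fosl2 with 0.55 (adjusted p = 0.0675), and Batf had 0.07 and Mafk -0.09. The mean log2 level of the 9 genes was 4.78, 4.63, 5.37 and 4.95 in the day 7 libraries and 3.86, 3.78, 3.54 and 3.70 in the naive libraries, with no overlap.

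Among 29 further immediate early and feedback genes, 4 were called higher and none lower, against 0.258% and 0.218% of all genes tested. The median log2 fold change of these genes was 0.21 and 22 were positive. Dusp1, a phosphatase that switches off MAP kinases, had 34.3, 32.6, 45 and 51.1 CPM in the day 7 libraries, against 8.07, 8.43, 6.60 and 13.2 CPM in the naive libraries. The naive library with the highest level, replicate 4, remained below all day 7 libraries (log2 fold change 2.14, SE 0.26, adjusted p = 0.000209). Ppp1r15a, the phosphatase subunit that reverses the translational block set by eIF2α phosphorylation, had 63.9, 53.1, 83.9 and 70.6 CPM at day 7, against 20.1, 21.5, 23.4 and 22.8 CPM in naive cells (log2 fold change 1.64, SE 0.21, adjusted p = 0.000384). Its naive values lay close together. Nfkbiz, a nuclear IκB protein that alters NF-κB target choice, had 113, 111, 139 and 125 CPM in the day 7 libraries, against 94.1, 93.4, 94.6 and 83.6 CPM in the naive libraries (log2 fold change 0.42, SE 0.08, adjusted p = 0.00267). Zfp36, which encodes tristetraprolin, a protein that destroys mRNAs with AU-rich elements, had 97.2, 95.9, 124 and 116 CPM at day 7, against 88.0, 81.4, 57.2 and 80.0 CPM in naive cells (log2 fold change 0.49, SE 0.11, adjusted p = 0.0231). The Zfp36 call was lost with day 7 replicate 3 left out (adjusted p = 0.0973), with day 7 replicate 4 left out (adjusted p = 0.0508) or with naive replicate 3 left out (adjusted p = 0.0748), in limma voom (0.106), in the fit of the knock-out groups alone (0.153) and with sets of library numbers as a block (0.0541). Several classical immediate early genes were not called. Egr1 had 55.3, 48.3, 52.2 and 58 CPM in the day 7 libraries, against 38.3, 48.7, 53.1 and 46.7 CPM in the naive libraries, values that overlap, with a log2 fold change of 0.20 (adjusted p = 0.371). The orphan nuclear receptor gene Nr4a1, a sensor of T cell receptor signals, had -0.08 (adjusted p = 0.923), and Cd69, an early surface marker of activation, 0.19 (adjusted p = 0.746). Ier2 had 0.32 (adjusted p = 0.133) and Nfkbia 0.22 (adjusted p = 0.39).

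The promoters of 3 of these genes and of the interferon-induced GTPase gene Tgtp2 are shown because each holds a match to at least 1 of 4 short motifs known for factors that act on such genes; the 4 were chosen after the matches were seen. The sequences are RefSeq's for GRCm38.p6, 250 bases before to 50 after the annotated start, 5′ to 3′ on the gene's strand, which is the minus strand in all 4. They cover chr17:26508423-26508722 (Dusp1), chr7:45526219-45526518 (Ppp1r15a), chr7:28379179-28379478 (Zfp36) and chr11:49064163-49064462 (Tgtp2). Capitals mark the motif matches.
Dusp1: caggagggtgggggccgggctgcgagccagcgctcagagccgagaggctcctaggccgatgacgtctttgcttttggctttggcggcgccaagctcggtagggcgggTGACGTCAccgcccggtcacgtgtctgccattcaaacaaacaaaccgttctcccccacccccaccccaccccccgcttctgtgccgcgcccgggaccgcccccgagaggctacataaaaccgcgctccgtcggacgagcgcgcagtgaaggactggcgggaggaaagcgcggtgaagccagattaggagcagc
Ppp1r15a: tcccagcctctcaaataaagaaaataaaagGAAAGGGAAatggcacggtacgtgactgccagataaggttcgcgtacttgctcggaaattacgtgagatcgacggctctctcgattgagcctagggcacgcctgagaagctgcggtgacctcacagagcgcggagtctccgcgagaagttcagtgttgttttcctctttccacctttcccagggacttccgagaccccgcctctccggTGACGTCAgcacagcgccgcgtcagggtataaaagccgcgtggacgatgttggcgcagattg
Zfp36: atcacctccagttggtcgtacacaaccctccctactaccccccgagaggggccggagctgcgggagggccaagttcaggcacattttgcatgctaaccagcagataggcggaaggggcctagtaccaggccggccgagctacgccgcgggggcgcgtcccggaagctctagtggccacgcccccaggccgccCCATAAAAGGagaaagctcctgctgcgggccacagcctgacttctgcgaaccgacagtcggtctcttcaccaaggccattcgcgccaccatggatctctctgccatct
Tgtp2: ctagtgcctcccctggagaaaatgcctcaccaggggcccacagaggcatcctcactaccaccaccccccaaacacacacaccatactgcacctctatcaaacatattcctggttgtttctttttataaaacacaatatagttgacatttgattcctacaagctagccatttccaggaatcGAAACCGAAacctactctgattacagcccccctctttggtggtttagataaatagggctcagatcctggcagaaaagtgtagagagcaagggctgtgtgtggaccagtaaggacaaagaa
Both strands were searched for TGACGTCA, the cyclic AMP response element, for TGANTCA, the AP-1 element, for GAAANNGAA, the core of the interferon-stimulated response element, and for the CArG box of serum response factor. Among 9434 promoters of tested genes in the same table, 3.4% held TGACGTCA, 4.5% TGANTCA, 7.27% GAAANNGAA and 1.28% the CArG box. Dusp1 had TGACGTCA at position -143 from the start and Ppp1r15a at position -12. Ppp1r15a also had GAAANNGAA at -220, Zfp36 had the CArG box at -58, and Tgtp2 had GAAANNGAA at -70. Among promoters not shown, that of Jund held GAAANNGAA at -10. Those of Fos, Jun, Junb, Btg1, Socs3, Tap1 and Ifit2 held none of the 4 motifs, although Tap1 and Ifit2 were called lower. GAAANNGAA was present in 10 of 11 promoters of interferon-induced GTPases (90.9%) and in 16 of 28 promoters of type I interferon-stimulated genes (57.1%). TGANTCA was present in 3 of the 11 (27.3%) and in 6 of the 28 (21.4%). Of the 9 AP-1 subunit promoters, 2 held GAAANNGAA (22.2%) and none held TGACGTCA, TGANTCA or the CArG box within the 300 bases searched. Sites outside these bases were not searched. A match is a run of letters and no evidence of binding.

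**Figure D2:**
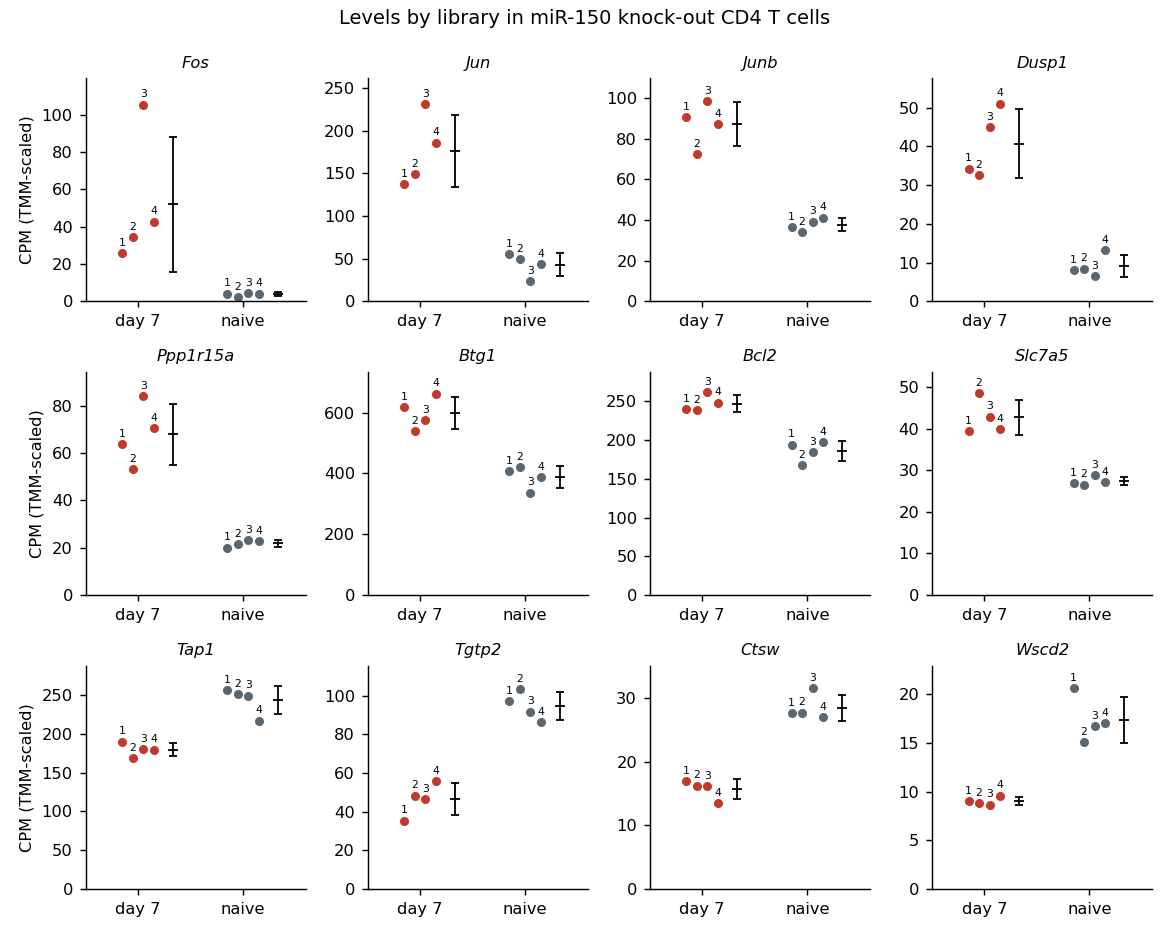
Levels in CPM (vertical axes, from 0) of 12 genes in each knock-out library, with day 7 in red on the left and naive in grey on the right. Points carry the replicate number and black bars are the mean ± SD of 4 libraries. In all 12 genes the day 7 and naive points do not overlap. The 12 were picked from the called genes, where this held for 68 of 70, against 5.07% of all genes tested.

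Slc7a5, Mars and Asns were called higher at day 7. Slc7a5, the transporter of large neutral amino acids that activated T cells depend on, had 39.5, 48.5, 42.9 and 40 CPM at day 7, against 26.9, 26.6, 28.8 and 27.2 CPM in naive cells (log2 fold change 0.64, SE 0.12, adjusted p = 0.00572). The Slc7a5 call was lost in limma voom (adjusted p = 0.062). It was the only one of 21 glycolysis and nutrient uptake genes called. The other amino acid transporter genes of the list, Slc3a2, Slc1a5 and Slc38a2, had log2 fold changes of 0.29, 0.22 and 0.28 that did not pass, and the median of the list was 0.11. Mars, the methionyl-tRNA synthetase gene, had 52.6, 54.7, 55.6 and 57.0 CPM in the day 7 libraries, against 37.5, 39.7, 41.5 and 38 CPM in the naive libraries (log2 fold change 0.49, SE 0.10, adjusted p = 0.0177), and its call was lost with naive replicate 1 left out (adjusted p = 0.0614) and in limma voom (0.115). Asns, asparagine synthetase and a target of the factor ATF4, had 4, 12, 23 and 5 reads in the day 7 libraries, against 0 in each naive library. Against a limit of 3 reads over the naive group it was at least 17.3-fold higher (adjusted p = 0.0208). That bound was 11.5-fold without naive replicate 1 and 10.5-fold without naive replicate 4. The Asns call was lost without any one of day 7 replicate 2 or naive replicates 1, 3 and 4 (adjusted p from 0.0555 to 0.0797), in limma voom (0.352) and with sets of library numbers as a block (0.0627). Atf4 itself had 75.3, 66.5, 82.5 and 77.9 CPM at day 7, against 63.3, 61.8, 57.2 and 63.8 CPM in naive cells, higher in each day 7 library but with a log2 fold change that did not pass (log2 fold change 0.30, adjusted p = 0.165).

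Of 15 tested genes of the stress response of the endoplasmic reticulum and of translation, 13 had positive values with a median log2 fold change of 0.30. Asns and Dnajb9 were the 2 called, both higher, against 0.258% of all genes tested. Dnajb9, a co-chaperone of the endoplasmic reticulum induced by the unfolded protein response, had 16.1, 17.1, 12 and 21.3 CPM in the day 7 libraries, against 8.23, 9.21, 9.05 and 10.5 CPM in the naive libraries (log2 fold change 0.84, SE 0.14, adjusted p = 0.0012). Its call was lost in the fit of the knock-out groups alone (adjusted p = 0.0585). Hspa5, the reticulum's main chaperone BiP, had 218.7, 209.8, 192 and 209.2 CPM at day 7, against 177, 179.8, 141 and 152 CPM in naive cells, without overlap between groups and a log2 fold change of 0.35 (adjusted p = 0.0665). Xbp1, a transcription factor of the same response, had 0.39 (adjusted p = 0.0978). Of 11 cytosolic and mitochondrial heat shock genes, 10 were positive with a median of 0.45, which was 0.29 without day 7 replicate 3. The list had 3 calls without naive replicate 2, 1 without day 7 replicate 1 and none without any other knock-out library. Hsp90aa1, the inducible HSP90 gene, had 291, 346, 344 and 394 CPM in the day 7 libraries, against 197, 256, 230.4 and 226 CPM in the naive libraries and was called (log2 fold change 0.60, SE 0.12, adjusted p = 0.0291). The Hsp90aa1 call was lost without any one of day 7 replicates 2, 3 and 4 or naive replicates 1, 3 and 4 (adjusted p from 0.0615 to 0.104) and in limma voom (0.0509). The inducible HSP70 gene Hspa1a had 10.2, 46.5, 155 and 23 CPM at day 7, against 24.1, 35.1, 26 and 19.2 CPM in naive cells, with day 7 replicate 1 the lowest of the 8 libraries and replicate 3 the highest (log2 fold change 1.21, adjusted p = 0.634). Hspa1a and Hspa1b are near-identical copies whose reads the counting could have split.

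Btg1 and Bcl2 were higher in every day 7 library than in any naive library. Btg1, an antiproliferative gene that helps keep T cells quiescent, had 618, 539, 575 and 662 CPM in the day 7 libraries, against 409, 422, 337 and 388 CPM in the naive libraries (log2 fold change 0.62, SE 0.07, adjusted p = 7.22e-07). Bcl2, the antiapoptotic founder of its family, had 239.6, 239, 261 and 248 CPM at day 7, against 194, 167, 184 and 197 CPM in naive cells (log2 fold change 0.41, SE 0.06, adjusted p = 0.000292). Btg1 was the only one of 20 naive and quiescent T cell genes called and Bcl2 the only one of 12 BCL2 family genes called. The medians of these lists were 0.03 and 0.14 on the log2 scale, against -0.0027 over all genes. The BCL2 family median was 0.21 without naive replicate 4 and 0.08 without either of day 7 replicates 3 and 4. Klf2, which maintains quiescence and exit from lymphoid organs, had 213.99, 195, 239 and 228 CPM in the day 7 libraries, against 166, 172, 179.6 and 164 CPM in the naive libraries, higher in all 4 day 7 libraries but not called (log2 fold change 0.36, adjusted p = 0.136). Ccr7, S1pr1, Il7r, Tcf7 and Lef1 had log2 fold changes of 0.03, 0.07, -0.10, 0.14 and 0.01, none of them called. These encode receptors and factors of naive T cells that recirculate.

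Several further genes were called higher. Id2, an inhibitor of E protein transcription factors, had 19.7, 23.2, 22.8 and 20.5 CPM at day 7, against 8.83, 12, 11.8 and 17.1 CPM in naive cells (log2 fold change 0.78, SE 0.14, adjusted p = 0.00349), and its call was lost in limma voom (adjusted p = 0.0792) and in the fit of the knock-out groups alone (0.0723). Cenpa, the histone H3 variant of centromeres, had 28.7, 34.3, 29.9 and 31.4 CPM in the day 7 libraries, against 20, 19.3, 20.2 and 25.4 CPM in the naive libraries (log2 fold change 0.54, SE 0.11, adjusted p = 0.0115). The Cenpa call was lost in limma voom (adjusted p = 0.0688) and in the fit of the knock-out groups alone (0.0805). Socs3, which blocks receptors of the IL-6 type, had 101, 72.0, 82.3 and 65.7 CPM at day 7, against 37.0, 27.8, 37.3 and 30.4 CPM in naive cells (log2 fold change 1.28, SE 0.28, adjusted p = 0.046). Pim1, a kinase gene downstream of STAT factors, had 76.3, 67.1, 78.7 and 64.1 CPM in the day 7 libraries, against 53.8, 39.1, 44.1 and 46.7 CPM in the naive libraries (log2 fold change 0.64, SE 0.14, adjusted p = 0.0291). Both were the called members of 26 genes of cytokine receptors, STATs and their feedback, whose median log2 fold change was 0.05. Socs3 lost its call without any one of day 7 replicates 1, 2 and 3 or naive replicates 1, 2, 3 and 4 (adjusted p from 0.0623 to 0.109), in limma voom (0.058) and with sets of library numbers as a block (0.0615). Pim1 lost its call without any one of day 7 replicates 1 and 3 or naive replicates 2, 3 and 4 (adjusted p from 0.058 to 0.105), in limma voom (0.0717) and with sets of library numbers as a block (0.0587). Day 7 and naive libraries did not overlap for either gene, as was the case for 68 of the 70 called genes. Map1lc3b, whose product LC3B coats autophagosomes, was called at log2 fold change 0.36, SE 0.08, adjusted p = 0.0231, and lost the call without any one of day 7 replicate 3 or naive replicates 1, 2 and 3 (adjusted p from 0.0607 to 0.111), in limma voom (0.106) and in the fit of the knock-out groups alone (0.111). Hectd2, a ubiquitin ligase gene, was called at log2 fold change 0.63, SE 0.13, adjusted p = 0.0177, and lost the call without any one of day 7 replicates 1 and 2 or naive replicates 1, 2 and 4 (adjusted p from 0.0517 to 0.0599), in limma voom (0.0688) and in the fit of the knock-out groups alone (0.0767). Tmem203 was called at log2 fold change 1.09, SE 0.22, adjusted p = 0.0115, and lost the call with naive replicate 3 left out (adjusted p = 0.0663), in limma voom (0.0783) and in the fit of the knock-out groups alone (0.114). Hist3h2a, a histone H2A gene, was called at log2 fold change 1.86, SE 0.37, adjusted p = 0.0115, and lost the call with day 7 replicate 1 left out (adjusted p = 0.0512) or with naive replicate 3 left out (adjusted p = 0.0632) and in limma voom (0.235).

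Of the genes in the lists of interferon-induced GTPases and type I interferon-stimulated genes, Tgtp2, Gbp8 and Ifit2 were called lower at day 7. Oas1b and Parp11, in neither list, were called lower as well. Both lost the call in limma voom (adjusted p = 0.278 and 0.27), among other fits. Of 18 interferon-induced GTPase genes, which defend against intracellular parasites, all had negative log2 fold changes, 2 were called lower and the median was -0.56. All 38 type I interferon-stimulated genes tested were also negative, with 1 called lower and a median of -0.56. Of all genes tested, 0.218% were called lower. Tgtp2 had 35.4, 48.3, 46.6 and 55.8 CPM at day 7, against 97.4, 103, 91.7 and 86.5 CPM in naive cells (log2 fold change -1.03, SE 0.23, adjusted p = 0.046). Gbp8, a guanylate-binding protein gene, had 97.0, 93.2, 86.0 and 90.7 CPM in the day 7 libraries, against 128, 119.9, 119 and 108 CPM in the naive libraries (log2 fold change -0.37, SE 0.08, adjusted p = 0.0231). Ifit2, whose product binds viral RNA, had 77.5, 68, 58.4 and 72.0 CPM at day 7, against 128, 105, 85.9 and 84.7 CPM in naive cells (log2 fold change -0.55, SE 0.12, adjusted p = 0.0208). Day 7 and naive libraries did not overlap for Tgtp2, Gbp8 or Ifit2. Tgtp2 lost its call without any one of day 7 replicates 1, 2 and 3 or naive replicates 1, 2, 3 and 4 (adjusted p from 0.0589 to 0.12), with the library number as a covariate (0.0617) and with sets of library numbers as a block (0.054). Gbp8 lost its call without any one of day 7 replicate 3 or naive replicates 1, 2 and 3 (adjusted p from 0.0543 to 0.125) and in limma voom (0.212), and Ifit2 without any one of day 7 replicates 2 and 3 or naive replicates 1 and 2 (adjusted p from 0.0574 to 0.0953), in limma voom (0.175) and in the fit of the knock-out groups alone (0.124). Tgtp2 has a near-identical neighbour, Tgtp1, at -0.91 (adjusted p = 0.0845), and reads of these genes may have been split between them.

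The naive libraries differed widely among themselves in these genes. Ifit3 had 9.62, 15.7, 9.45 and 11 CPM in the day 7 libraries, against 89.3, 36.3, 29.2 and 12.3 CPM in the naive libraries, with naive replicate 1 far above the others and naive replicate 4 within the range of the day 7 libraries (log2 fold change -1.90, adjusted p = 0.179). Oasl2 had 8.30, 13.4, 4.27 and 12.5 CPM at day 7, against 51.8, 26.7, 19.5 and 12.5 CPM in naive cells (log2 fold change -1.58, adjusted p = 0.164). Irf7 had -0.57 (adjusted p = 0.442), Isg15 -1.19 (adjusted p = 0.401), Igtp -0.66 (adjusted p = 0.166) and Irgm1 -0.50 (adjusted p = 0.295). The mean log2 level of the 38 interferon-stimulated genes was 5.04, 5.19, 4.63 and 4.97 in day 7 libraries and 6.30, 5.73, 5.45 and 5.01 in naive libraries, so naive replicate 4 lay within the day 7 range. Their median log2 fold change was -0.37 without naive replicate 1. The mean log2 level of the GTPase genes was 4.58, 4.96, 4.85 and 4.77 in day 7 libraries and 5.78, 5.47, 5.24 and 5.02 in naive libraries, with no overlap, and their median was -0.40 without naive replicate 1. For Ifit3, Oasl2 and both lists the naive level fell from replicate 1 to replicate 4, which is the order of their library numbers. The day 7 level did not fall in that order. Whether the difference between naive libraries, or their order, has part in the lower values at day 7 was not tested.

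**Figure D3:**
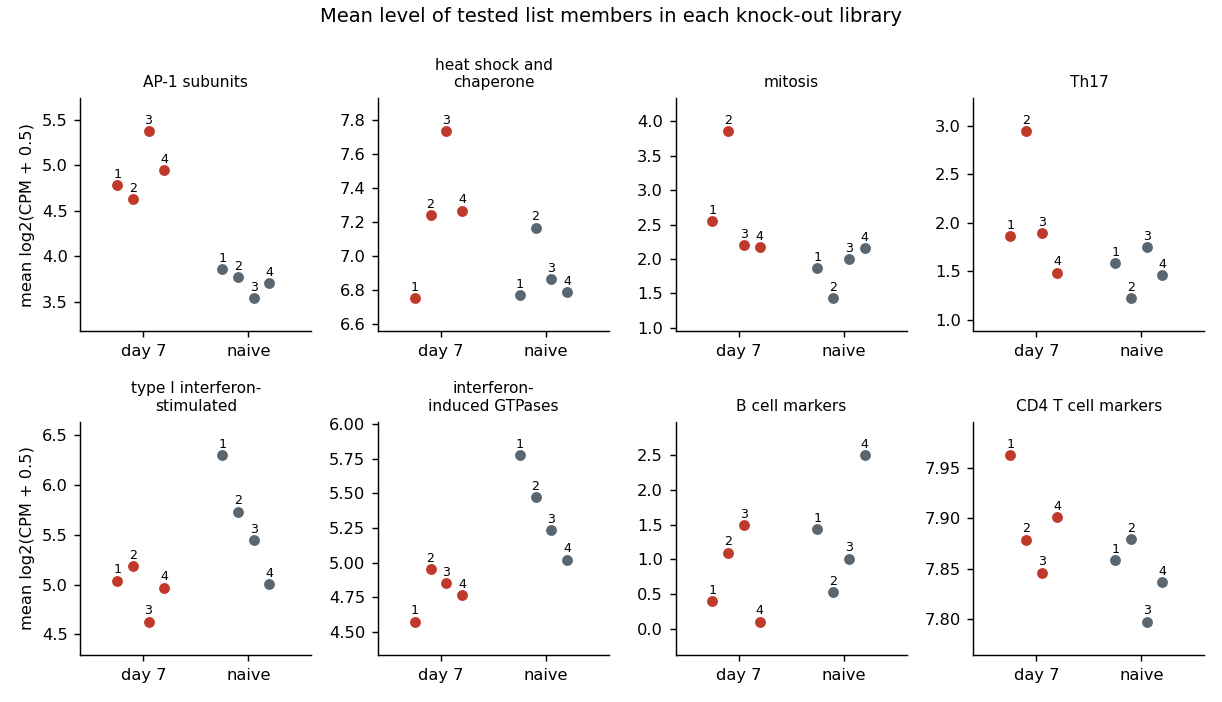
Mean log2(CPM + 0.5) of the tested members of 8 gene lists (vertical axes, which do not start at 0 and differ in span) in each knock-out library, day 7 in red on the left and naive in grey on the right, with replicate numbers. Day 7 replicate 2 stands highest in the mitosis and Th17 lists, naive replicate 1 in both interferon lists and naive replicate 4 in the B cell list, while the CD4 T cell markers span 7.80 to 7.96.

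Antigen presentation on MHC class I showed 1 call among 18 genes, or 2 without naive replicate 4. Tap1, which carries peptides into the endoplasmic reticulum for class I molecules, had 190.0, 169, 181 and 179.8 CPM in the day 7 libraries, against 257, 252, 249.4 and 217.3 CPM in the naive libraries (log2 fold change -0.44, SE 0.07, adjusted p = 0.000389). All day 7 libraries were below all naive libraries, and the call held in every alternative. The list's median log2 fold change was -0.19 with 15 of 18 members negative. B2m had 0.15 (adjusted p = 0.472) and H2-K1 -0.08 (adjusted p = 0.604). H2-T22, a non-classical class I gene recognised by some γδ T cells, had 123, 100.1, 115 and 117 CPM at day 7, against 172, 145, 155 and 131 CPM in naive cells (log2 fold change -0.41, SE 0.08, adjusted p = 0.00572). The H2-T22 call was lost with naive replicate 1 left out (adjusted p = 0.0583) and in limma voom (0.0792), and class I genes resemble one another closely enough for their reads to be shared.

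The leading genes called lower outside these lists have varied roles. Wscd2 had 9.02, 8.85, 8.67 and 9.60 CPM in the day 7 libraries, against 20.6, 15.1, 16.7 and 17 CPM in the naive libraries (log2 fold change -0.95, SE 0.13, adjusted p = 2.87e-05), with day 7 libraries tightly grouped. Apol7e, of the apolipoprotein L family, had 45.1, 42.4, 53.3 and 43.3 CPM at day 7, against 79.2, 74.3, 70.3 and 59.3 CPM in naive cells (log2 fold change -0.62, SE 0.10, adjusted p = 0.000292). Gpd2, the mitochondrial glycerol-3-phosphate dehydrogenase that feeds electrons from glycolysis into the respiratory chain, had 19.1, 26.3, 21.3 and 21.8 CPM in the day 7 libraries, against 31.7, 39.2, 41.2 and 38.7 CPM in the naive libraries (log2 fold change -0.78, SE 0.15, adjusted p = 0.00829). Wscd2, Apol7e and Gpd2 were called in every alternative. Sdc3, a heparan sulfate proteoglycan gene, had 11.7, 8.09, 7.46 and 9.41 CPM at day 7, against 25.5, 17.6, 19.2 and 15.2 CPM in naive cells (log2 fold change -1.08, SE 0.22, adjusted p = 0.0115) and lost its call with day 7 replicate 3 left out (adjusted p = 0.0738) or with naive replicate 1 left out (adjusted p = 0.0646) and in limma voom (0.2). Skil, a repressor of TGF-β signalling that is itself induced by TGF-β, had 136, 168, 139 and 146 CPM in the day 7 libraries, against 195, 192, 192 and 176.2 CPM in the naive libraries (log2 fold change -0.36, SE 0.07, adjusted p = 0.0115). It was the only one of 12 TGF-β pathway genes called and lost its call with day 7 replicate 1 left out (adjusted p = 0.0542) or with day 7 replicate 3 left out (adjusted p = 0.0556) and in limma voom (0.0783). The TGF-β list had a median log2 fold change of -0.05, with Tgfbr1 at -0.10, Tgfbr2 at -0.09 and Smad3 at -0.05.

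Ctsw, which encodes cathepsin W of cytotoxic lymphocytes, had 17, 16.3, 16.2 and 13.6 CPM at day 7, against 27.7, 27.8, 31.6 and 27.1 CPM in naive cells (log2 fold change -0.85, SE 0.13, adjusted p = 0.000249). It was called in every alternative, and was the only called member of 9 tested markers of CD8 T, NK and γδ T cells. In such bulk samples fewer cells of a type and less RNA per cell cannot be told apart. These 9 markers had a median log2 fold change of -0.54, and 8 of 9 were negative. Over the 12 markers present in the table, summed levels ranged over 53.6 to 78.0 CPM in day 7 libraries and 79.5 to 99.2 CPM in naive libraries. Cd8a had 0.383, 0.376, 0.531 and 0.502 CPM in the day 7 libraries, against 2.31, 0.425, 0.377 and 6.77 CPM in the naive libraries, and Cd8b1 had 12.8, 6.97, 11.3 and 7.90 CPM at day 7, against 9.30, 8.93, 9.49 and 14.7 CPM in naive cells. The γδ T cell receptor gene Trdc had 8.0, 11.9, 7.88 and 8.41 CPM in the day 7 libraries, against 14.5, 11.4, 12.1 and 13.9 CPM in the naive libraries (log2 fold change -0.54, adjusted p = 0.115). Without day 7 replicate 2 the list's median was -0.87 and 2 members were called lower. The part of other lymphocytes in the Ctsw result was not tested.

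B cell markers were low and uneven. None of 19 was called, and their median log2 fold change of -1.04 became -0.00333 once naive replicate 4 was left out. Omitting day 7 replicate 3 gave -1.97, and omitting day 7 replicate 4 gave -0.65. Their summed levels ranged over 146 to 209.3 CPM in day 7 libraries and 165 to 262 CPM in naive libraries. Ighm made up most of this sum, with 168, 169, 157 and 138 CPM at day 7, against 165, 163, 135 and 164 CPM in naive cells, while Cd79a had 0.0851, 0.941, 0.0442 and 0.627 CPM in the day 7 libraries, against 1.15, 1.35, 2.26 and 3.71 CPM in the naive libraries, and Ms4a1 had 0, 0.376, 0.376 and 0 CPM at day 7, against 0.105, 0.921, 0.503 and 2.99 CPM in naive cells. None of 8 tested myeloid markers was called (median -0.14, and 0.14 without naive replicate 1), with summed levels of 127 to 143 CPM at day 7 and 119 to 179.8 CPM in naive libraries. The haemoglobin gene Hbb-bs had 0.0426, 0, 0 and 0 CPM in the day 7 libraries, against 0.655, 0, 0.251 and 1.84 CPM in the naive libraries. Red cell and platelet markers summed to 2.99 to 4.89 CPM in day 7 libraries and 3.75 to 13.1 CPM in naive libraries, and Pf4 and Ppbp were at 0 in all 8.

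The remaining genes among those called lower with the smallest p-values changed by less. Galnt10, a glycosyltransferase gene, had log2 fold change -0.37, SE 0.07, adjusted p = 0.0115, and its call was lost with day 7 replicate 2 left out (adjusted p = 0.0555) or with naive replicate 3 left out (adjusted p = 0.0831), in limma voom (0.0842) and in the fit of the knock-out groups alone (0.0704). Mov10, an RNA helicase gene with antiviral activity, had log2 fold change -0.44, SE 0.09, adjusted p = 0.0121, and its call was lost with day 7 replicate 1 left out (adjusted p = 0.0599), with naive replicate 1 left out (adjusted p = 0.0528) or with naive replicate 3 left out (adjusted p = 0.0685), in limma voom (0.0842) and in the fit of the knock-out groups alone (0.0516). For Golm1, of the Golgi membrane, the values were log2 fold change -0.59, SE 0.12, adjusted p = 0.0164, and its call was lost with day 7 replicate 3 left out (adjusted p = 0.0598), with naive replicate 1 left out (adjusted p = 0.0664) or with naive replicate 3 left out (adjusted p = 0.0779) and in limma voom (0.129). Chd7, a chromatin remodeller gene, had log2 fold change -0.27, SE 0.06, adjusted p = 0.0177, and its call was lost with day 7 replicate 3 left out (adjusted p = 0.0567), with day 7 replicate 4 left out (adjusted p = 0.0507) or with naive replicate 3 left out (adjusted p = 0.102), in limma voom (0.058) and in the fit of the knock-out groups alone (0.114). Arsb, a lysosomal sulfatase gene, had log2 fold change -0.66, SE 0.14, adjusted p = 0.0177, and its call was lost with day 7 replicate 1 left out (adjusted p = 0.0753), with day 7 replicate 3 left out (adjusted p = 0.0792) or with naive replicate 1 left out (adjusted p = 0.0812), in limma voom (0.0772) and with sets of library numbers as a block (0.0672). Sntb1, Pou6f1, Nin, Zfp687 and Clip2 were called as well, at log2 fold changes of -0.43, -0.52, -0.31, -0.37 and -0.72. The Sntb1 call was lost with naive replicate 1 left out (adjusted p = 0.128), in limma voom (0.0772) and in the fit of the knock-out groups alone (0.0882). Pou6f1, a POU-domain factor gene, lost it with day 7 replicate 3 left out (adjusted p = 0.0596), with naive replicate 1 left out (adjusted p = 0.0762) or with naive replicate 3 left out (adjusted p = 0.111), in limma voom (0.169) and in the fit of the knock-out groups alone (0.0882). Nin, which encodes a centrosome protein, lost it without any one of day 7 replicates 2 and 3 or naive replicates 1 and 3 (adjusted p from 0.0535 to 0.129), in limma voom (0.194) and in the fit of the knock-out groups alone (0.0905). Zfp687 lost it with day 7 replicate 2 left out (adjusted p = 0.0828), with naive replicate 3 left out (adjusted p = 0.111) or with naive replicate 4 left out (adjusted p = 0.058), in limma voom (0.0659) and in the fit of the knock-out groups alone (0.121). Clip2, a linker of microtubules, lost it without any one of day 7 replicates 2 and 3 or naive replicates 2, 3 and 4 (adjusted p from 0.0557 to 0.0802), in limma voom (0.074) and in the fit of the knock-out groups alone (0.0767).

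No member of the helper T cell and activation lists was called with all 8 libraries. Among 24 activation genes 18 were positive, with a median log2 fold change of 0.18, which was 0.10 without day 7 replicate 2 and 0.12 without naive replicate 3; without day 7 replicate 4, 1 member was called higher. Cd44, a marker of antigen-experienced T cells, had 39.3, 67, 42.2 and 42.4 CPM at day 7, against 47.2, 37.5, 49.5 and 48.1 CPM in naive cells. Il2ra, the inducible chain of the IL-2 receptor, had 68.6, 112, 69.3 and 73.8 CPM in the day 7 libraries, against 77.4, 75.7, 88.7 and 71.6 CPM in the naive libraries, and Icos, a costimulatory receptor gene, had 38.2, 70.1, 49.4 and 36.6 CPM at day 7, against 28.8, 29.0, 34.2 and 38.4 CPM in naive cells. In each of these genes day 7 replicate 2 was the highest library and the groups overlapped for Cd44, Il2ra and Icos. All 12 tested Th17 genes were positive, with a median of 0.56 that was 0.27 without day 7 replicate 2. Without day 7 replicate 2, 9 were positive, and likewise 9 without naive replicate 2. Il22 and Il21 had means of 0.152 and 0.893 CPM at day 7, against 0 and 0.0402 CPM in naive cells. A negative value was hardly possible for these genes. Il1r1, the IL-1 receptor of Th17 cells, had 2.85, 9.32, 7.57 and 2.45 CPM in the day 7 libraries, against 0.760, 0.779, 1.45 and 0.877 CPM in the naive libraries (log2 fold change 2.53, adjusted p = 0.106), and these libraries did not overlap. Il17a had reads in 1 of the 8 libraries, day 7 replicate 3, at 0.0664 CPM, and was too low to be tested.

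Th1 genes had a median of -0.17 over 14 members, between -0.41 (without naive replicate 2) and -0.03 (without day 7 replicate 4) when libraries were left out. Tbx21, the Th1 factor T-bet, had 1.87, 1.32, 0.509 and 0.878 CPM at day 7, against 4.17, 1.06, 2.33 and 3.64 CPM in naive cells. The follicular helper list had a median of 0.25 over 13 members, 0.12 without day 7 replicate 2. Cxcr5, the receptor that draws T cells to B cell follicles, had 5.45, 13.7, 6.57 and 4.58 CPM in the day 7 libraries, against 3.35, 1.77, 3.14 and 2.68 CPM in the naive libraries (log2 fold change 1.42, adjusted p = 0.276), and Tox2 had 5.45, 12.4, 4.36 and 2.70 CPM at day 7, against 1.78, 0.142, 2.20 and 1.24 CPM in naive cells (log2 fold change 2.15, adjusted p = 0.183). In both, every day 7 library exceeded every naive one. The regulatory T cell list had a median of 0.12 over 14 members, 0.07 without naive replicate 2, with 1 member called higher without day 7 replicate 4, and Foxp3 had 55.4, 65.1, 61.1 and 61.4 CPM in the day 7 libraries, against 67.6, 50.8, 57.3 and 50 CPM in the naive libraries. Th2 genes had a median of -0.17 over 5 members, which was -0.05 without day 7 replicate 4, and Gata3 had 58.6, 61.7, 82.1 and 63.2 CPM at day 7, against 56.7, 70.4, 71.6 and 64.9 CPM in naive cells.

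Of the genes in the mitosis and S phase lists 1 was called. Cenpa and the called histone genes are in neither list. All 24 mitosis genes were positive, 20 of them without day 7 replicate 2, none was called, and the median log2 fold change was 1.13. Mki67, the proliferation antigen Ki-67, had 61.7, 246, 60.1 and 51.9 CPM in the day 7 libraries, against 40.3, 19.3, 52.5 and 53.0 CPM in the naive libraries (log2 fold change 1.32, adjusted p = 0.419). Day 7 replicate 2 lay far above the other libraries, and without it the median of the list was 0.50. Top2a, the topoisomerase of dividing cells, had 41.0, 100.1, 31.6 and 26 CPM at day 7, against 21.6, 11.4, 31.2 and 26.9 CPM in naive cells. Of 21 S phase genes, 19 were positive (16 without day 7 replicate 2) with a median of 0.30, and Mcm4, a subunit of the replicative helicase, was the 1 called higher. Mcm4 had 58.3, 79.2, 76.1 and 61.5 CPM in the day 7 libraries, against 51.0, 55.0, 51.5 and 49.5 CPM in the naive libraries (log2 fold change 0.41, SE 0.10, adjusted p = 0.046), and its call was lost without any one of day 7 replicates 2 and 3 or naive replicates 1, 2, 3 and 4 (adjusted p from 0.0583 to 0.176), with the library number as a covariate (0.0533), in limma voom (0.299), without robust estimation (0.0749), in the fit of the knock-out groups alone (0.119) and with sets of library numbers as a block (0.084). Pcna had 0.30 (adjusted p = 0.257) and Rrm2 1.34 (adjusted p = 0.302).

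**Figure D4:**
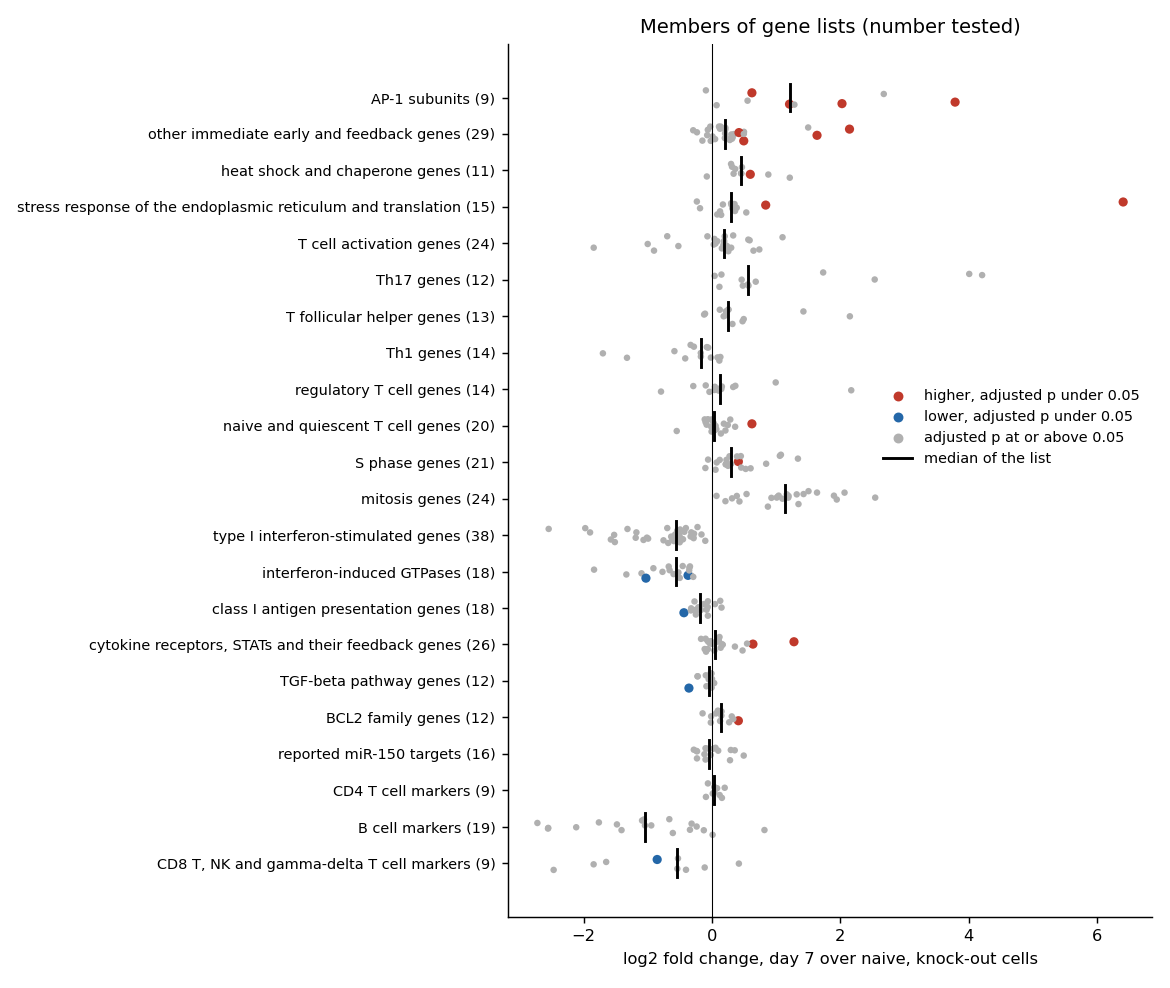
Log2 fold change, day 7 over naive in knock-out cells (horizontal axis), of each tested member of 22 gene lists, whose number of tested members is in brackets. Red and blue points passed at an adjusted p below 0.05, grey points did not, and the black tick is the list's median. With all 8 libraries, all members of both interferon lists lie below 0 and all mitosis and Th17 members above it. Without day 7 replicate 2, 20 of 24 mitosis and 9 of 12 Th17 members were positive.

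None of 16 reported miR-150 target genes was called, against 0.476% of all genes tested. The median log2 fold change of the 16 was -0.05 with 7 positive values. Both groups had 0 Mir150 counts, so this contrast cannot show an action of miR-150 on its targets. Myb had 44.5, 72.8, 51.9 and 48.6 CPM at day 7, against 43.8, 35.1, 53.2 and 44.7 CPM in naive cells (log2 fold change 0.29, adjusted p = 0.6), with day 7 replicate 2 the highest. Foxp1, a quiescence factor, had -0.08 (adjusted p = 0.604), Pdcd4, a translation inhibitor gene, -0.23 (adjusted p = 0.127) and the chemokine receptor gene Cxcr4 0.35 (adjusted p = 0.832). Other lists without a call had medians near that of all genes. These were 23 respiratory chain genes (0.06), 16 ribosome biogenesis and Myc target genes (0.01), 24 chemokine receptor and adhesion genes (0.04) and 21 T cell receptor signalling genes (-0.05). Without day 7 replicate 4, 1 T cell receptor signalling gene was called lower. Among 14 NF-κB subunits and inhibitors Nfkbiz was the only call, and the median was 0.06. Among 12 genes that respond to glucocorticoids, Dusp1 was the only call, and the median was -0.02. Tsc22d3, a widely used glucocorticoid marker known as GILZ, had 85.0, 70.9, 127 and 149 CPM in the day 7 libraries, against 84.6, 69.6, 47.3 and 158 CPM in the naive libraries, with naive replicate 4 the highest library. Fkbp5 had 0.03 (adjusted p = 0.943) and Per1 -0.06 (adjusted p = 0.857).

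The same contrast called 312 genes in knock-in cells (2.12% of 14703) and 331 in wild-type cells (2.25%). DESeq2 called 105 genes higher and 117 lower in knock-out cells, 499 genes in knock-in and 499 in wild-type cells, and limma voom called 16, 720 and 516 genes in that order of genotypes. Of the 70 genes called in knock-out cells by edgeR, 38 were also called in knock-in cells (54.3% of the knock-out calls and 12.2% of the knock-in calls) and 38 in wild-type cells (54.3% and 11.5%). All shared calls had the same direction, and 33 genes were called in all 3 genotypes. The genotypes share no libraries. The difference between genotypes was tested as an interaction, which called no gene between the knock-out and knock-in changes (0% of genes) and none between the knock-out and wild-type changes (0%). Unadjusted p-values were below 0.05 for 1041 genes against knock-in and 1118 against wild-type. DESeq2 called 2 genes against knock-in and 1, Junb, against wild-type, and limma voom none. The smallest adjusted p in edgeR was 0.349 against knock-in and 0.205, for Junb, against wild-type. A gene called in knock-out cells and not in another genotype is thus not shown to differ between them.

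The AP-1 and feedback genes had these changes in the other genotypes. Junb had log2 fold changes of 1.34 in knock-in cells (adjusted p = 1.94e-09) and 1.99 in wild-type cells (adjusted p = 8.14e-14), beside 1.21 in knock-out cells. The Junb change differed between knock-out and wild-type by -0.78 ± 0.15 (SE), which missed the threshold in edgeR and passed in DESeq2 (adjusted p = 0.0212). Fos had 3.07 in knock-in cells (adjusted p = 0.00418) and 4.63 in wild-type cells (adjusted p = 0.000439). Jun had 1.48 in knock-in cells (adjusted p = 0.0169) and 3.19 in wild-type cells (adjusted p = 1.41e-05), Dusp1 1.91 in knock-in cells (adjusted p = 0.000223) and 3.21 in wild-type cells (adjusted p = 1.19e-06), and Ppp1r15a 1.79 in knock-in cells (adjusted p = 5.98e-05) and 2.70 in wild-type cells (adjusted p = 5.78e-07). The median over the 9 AP-1 subunits was 1.21 in knock-out, 1.34 in knock-in and 1.54 in wild-type cells, with 4, 7 and 5 called higher in that order. The knock-out change was the lower one for 9 of 9 subunits against wild-type (median difference -0.69) and for 7 of 9 against knock-in (median difference -0.24), and none of these differences passed in edgeR. Heat shock genes had a median of 0.45 with 1 call in knock-out cells, 0.03 with no call in knock-in cells and 0.74 with 7 calls in wild-type cells. Of all genes tested, 0.476% were called in knock-out, 2.12% in knock-in and 2.25% in wild-type cells. No heat shock gene passed the interaction test in edgeR.

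Among the genes called lower, Tap1 had -0.11 in knock-in cells (adjusted p = 0.488) and -0.15 in wild-type cells (adjusted p = 0.291), beside -0.44 in knock-out cells. H2-T22 had 0.03 in knock-in cells (adjusted p = 0.915) and -0.14 in wild-type cells (adjusted p = 0.405). Sdc3 had -0.29 in knock-in cells (adjusted p = 0.608) and -0.20 in wild-type cells (adjusted p = 0.742). Wscd2 had -0.70 in knock-in cells (adjusted p = 0.00135) and -0.72 in wild-type cells (adjusted p = 0.000439), Gpd2 -0.82 in knock-in cells (adjusted p = 0.00189) and -0.78 in wild-type cells (adjusted p = 0.00158), and Apol7e -0.67 in knock-in cells (adjusted p = 4.01e-05) and -0.46 in wild-type cells (adjusted p = 0.00264). Medians of the type I interferon-stimulated list were -0.56 in knock-out, -0.13 in knock-in and -0.30 in wild-type cells. The GTPase list had -0.56, -0.37 and -0.26 in that order, and no member of either list was called in knock-in or wild-type cells. Bcl2 was higher in all 3 genotypes, with 0.34 in knock-in cells (adjusted p = 0.00205) and 0.23 in wild-type cells (adjusted p = 0.0384), and so was Btg1, with 0.46 in knock-in cells (adjusted p = 0.000102) and 0.87 in wild-type cells (adjusted p = 2.44e-11). Id2 had 0.30 in knock-in cells (adjusted p = 0.33) and 0.53 in wild-type cells (adjusted p = 0.0401). Mcm4, called in knock-out cells, had 0.19 in knock-in cells (adjusted p = 0.406) and -0.02 in wild-type cells (adjusted p = 0.964).

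**Figure D5:**
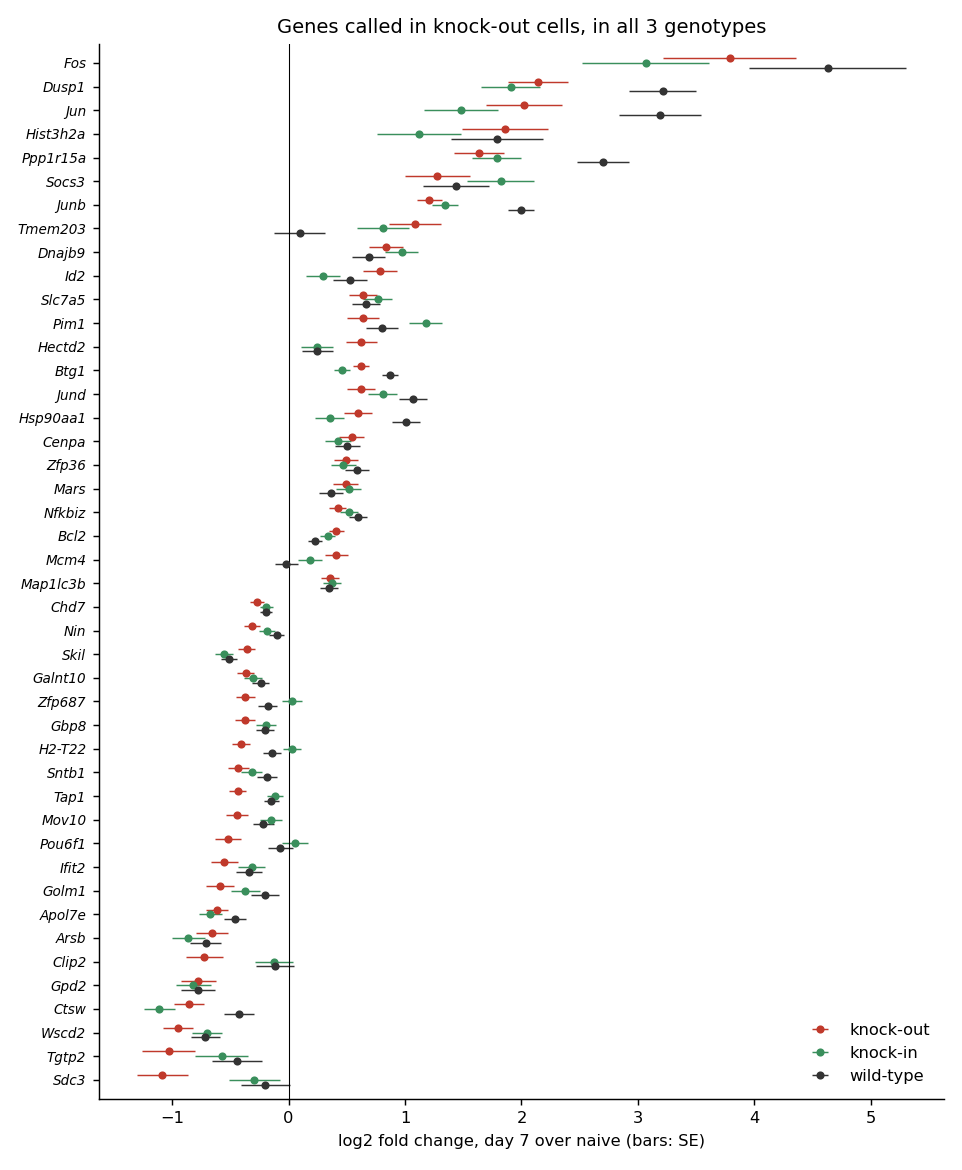
Log2 fold change, day 7 over naive (horizontal axis), with its SE as bars, of the genes called in knock-out cells and named by rule, in knock-out, knock-in and wild-type cells. Asns is left out because its naive knock-out libraries hold no reads. Genes run from the highest to the lowest knock-out value, Fos at the top and Sdc3 at the bottom; SE bars of the genotypes overlap for many genes, and no interaction passed in edgeR.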

How the data were processed

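Per the labels' protocols, miRNeasy kits yielded the RNA of the sorted cells, and paired reads came from SMARTer Stranded Total RNA libraries (the Pico kit) on a NovaSeq instrument. The submitters' processing notes name mm10 and DESeq2. They do not name the aligner, counter, annotation or strand setting, so values of overlapping genes remain uncertain. The file deposited by the authors gives unnormalized counts, by Ensembl ID, for 46078 genes in 25 libraries. Symbols came from GENCODE M21 for 45229 of them. No 2 libraries of a knock-out group agreed within sampling noise (chi-square per degree of freedom from 12.9 to 81.5).

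All 25 libraries entered 1 model of 6 group means in edgeR 4.0.16 (R 4.3.3), with filterByExpr at 10 counts and a total of 15, TMM scaling, robust dispersion and the quasi-likelihood test. P-values were adjusted by Benjamini and Hochberg over 14703 genes, at 0.05. CPM are scaled by TMM. Alternatives used DESeq2 1.42.0, limma 3.58.1 (voom with quality weights), DESeq2's size factors, other filters, only the groups compared, no mitochondrial, ribosomal RNA or haemoglobin genes, the library number as a covariate or in sets of 4 as a block, no robust estimation, and each library left out. The fit was tested on simulated data.

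The comparison, the 33 gene lists and the tests were chosen with earlier results of these data known. Named genes are up to 20 called in each direction with the smallest p, leaving out predicted genes, pseudogenes, receptor segments and sex-linked genes, up to 4 called members per list, key genes of the lists, and Mir150. Other list members and genes that are named were chosen after their values were seen. Lists were given counts and medians, with no list test. A mature miR-150 sequence is not shown. A few list members are not reported here.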

Additional observations from a re-analysis of the deposited data

Results flagged for a closer look

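In the knock-out day 7 and naive groups, 4 libraries each, 33 of 404 groups of values (genes, gene lists and library properties) held 1 library that stood apart, with a gap to the nearest library above the critical share of the group's range in Dixon's test. Chance alone gives about 1 in 20.

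Day 7 replicate 2 accounted for the most of these. It was the highest day 7 library for Trdc (11.9 CPM, next 8.41 CPM), Rrm2 (18.2 CPM, next 6.84 CPM), Itgb1 (149 CPM, next 92.9 CPM), Mki67 (246 CPM, next 61.7 CPM), Ikzf2 (147 CPM, next 86.6 CPM), Ccnb1 (8.38 CPM, next 1.25 CPM), Cd44 (67 CPM, next 42.4 CPM) and Il2ra (112 CPM, next 73.8 CPM). These are genes of dividing, activated or regulatory T cells, with the γδ T cell receptor gene Trdc among them.
It also had the highest mean log2 level of T cell activation genes (4.11, next 3.498) and the highest share of counts on mitochondrial mRNA (0.859%, next 0.633%), and was the lowest for Ier2 (54.2 CPM, next 66.8 CPM).
Day 7 replicate 1 was the highest for Hbb-bs (0.0426 CPM, next 0 CPM), Sdha (164 CPM, next 139.9 CPM) and Smad3 (74.8 CPM, next 70 CPM).

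Naive replicate 1 was the lowest naive library for Ccdc117 (19.1 CPM, next 25.1 CPM) and Ldha (129 CPM, next 144 CPM).
Naive replicate 2 was the highest for S1pr1 (319 CPM, next 308 CPM).
It was the lowest for Ikzf2 (54.8 CPM, next 80.6 CPM), Il2rb (32.7 CPM, next 54.1 CPM), the mean log2 level of T cell activation genes (3.29, next 3.61) and the mean log2 level of Th2 genes (3.496, next 3.99).
Naive replicate 3 was the highest for Ctsw (31.6 CPM, next 27.8 CPM), Il1r1 (1.45 CPM, next 0.877 CPM) and Smad7 (208.8 CPM, next 184 CPM).
It was the lowest for Mcl1 (312 CPM, next 361 CPM), Ighm (135 CPM, next 163 CPM) and the mean log2 level of respiratory chain genes (5.11, next 5.22).
Naive replicate 4 was the highest for Gm12703 (0.0450 CPM, next 0 CPM), Cenpa (25.4 CPM, next 20.2 CPM), Cd8b1 (14.7 CPM, next 9.49 CPM) and the mean log2 level of glycolysis and nutrient uptake genes (5.34, next 5.25).
It was the lowest for Nfkbiz (83.6 CPM, next 93.4 CPM) and Mov10 (64.2 CPM, next 76.8 CPM).
The values of Gm12703 and Hbb-bs rest on 1 or 2 reads. Ctsw, Nfkbiz, Cenpa, Mov10 and Ccdc117 were called between day 7 and naive.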

How the results depend on the processing

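The 38 genes called higher and 32 called lower changed in number with the fit. DESeq2 called 105 higher and 117 lower, and omitting the count filter gave 287 and 253. limma voom called 9 and 7, and the fit of the knock-out groups alone 24 and 21. Without single libraries the numbers ranged from 17 to 49 higher and from 16 to 49 lower. The fewest calls came without naive replicate 3 (17 and 16), and the most without day 7 replicate 4 (49 and 49). Omitting naive replicate 1 gave 26 and 16, and omitting day 7 replicate 3 gave 26 and 21. The cause was not tested. The other alternatives, among them DESeq2's size factors in edgeR, a filter of at least 5 CPM in 4 libraries, the library number as a covariate and, added after seeing the data, no robust estimation (31 higher and 29 lower), stayed within 1.5 times.

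The difference of the knock-out change from the knock-in change, with no call in edgeR, was called in DESeq2 for 0.0068% of tested genes as higher and 0.0068% as lower, 1 gene each, and without the count filter for 0.124% and 0.685%. The difference from the wild-type change was called lower in DESeq2 for 0.0068% of genes, which is Junb alone, and without the filter for 0.101% as higher and 0.581% as lower. The labels do not pair a day 7 library with a naive one. In library number, however, each knock-out naive library is followed directly by a knock-out day 7 library. Each set of 4 consecutive library numbers with knock-out libraries therefore held a naive and a day 7 one. As a block these sets, which the labels do not call pairs, gave 28 higher and 33 lower. Of these 61 calls, 51 were shared with the main fit. Genes under 5 CPM, such as Asns, have no value under that filter. At day 7 replicate 2's depth of 9800746 counts, 3 counts are the least that limits a level, so small changes in low genes were not detectable; the limits cover counting error only.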

Other observations

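Of the 70 called genes, 4 outside the naming rule are given here, chosen after their values were seen. Mog, which encodes myelin oligodendrocyte glycoprotein, a myelin protein that is also a common antigen for inducing EAE, had 44, 8, 0 and 8 reads in the knock-out day 7 libraries, against 0 in each naive library. Against a limit of 3 reads over the naive group it was at least 23.7-fold higher (adjusted p = 0.045), and the call was lost without any one of day 7 replicates 1 and 2 or naive replicates 1, 2, 3 and 4 (adjusted p from 0.058 to 0.139), with the library number as a covariate (0.0617), in limma voom (0.447), without robust estimation (0.0694) and with sets of library numbers as a block (0.0836). Most of its reads came from day 7 replicate 1, without which the bound was 8.37-fold. It was 45.0-fold without day 7 replicate 3, 15.6-fold without naive replicate 1 and 14.3-fold without naive replicate 4. In the whole series, 12 of 13 day 7 libraries and 1 of 12 naive libraries held Mog reads, between 0 and 44 per library at day 7 and at most 1 in naive libraries. Gm12703, a predicted transcript on the minus strand of chromosome 4 (mm10 chr4:95029963-95048370), lies just downstream of Jun (chr4:95049034-95052222, minus strand). It had 1.06, 1.22, 1.48 and 1.19 CPM at day 7, against 0, 0, 0 and 0.0450 CPM in naive cells, was called in every alternative in which it was tested, and had 3.43 in knock-in cells (adjusted p = 0.0139) and 7.51 in wild-type cells (adjusted p = 0.00336) as log2 fold changes in the other genotypes. Where naive reads are almost absent such fitted values depend on the prior count, and their sizes are not compared between genotypes. The uncharacterised gene BE692007 had 104, 116, 95.0 and 92.2 CPM in the day 7 libraries, against 179, 147, 161 and 154 CPM in the naive libraries (log2 fold change -0.66, SE 0.08, adjusted p = 2.06e-06), and 9930111J21Rik1 had 109, 129, 129.6 and 145 CPM at day 7, against 184, 185, 206.4 and 156 CPM in naive cells (log2 fold change -0.51, SE 0.09, adjusted p = 0.00161). BE692007 was called in every alternative, and the call on 9930111J21Rik1 was lost in limma voom (adjusted p = 0.0656).

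Replication-dependent histone genes, a group chosen after the values were seen, had positive log2 fold changes in 55 of 56 members tested, with a median of 0.86. Without day 7 replicate 2, 48 were positive, with a median of 0.36. Of these genes 3 were called higher, namely Hist3h2a, Hist2h2ab and Hist2h2bb, against 1 or 2 without any one library. Over all genes tested, 0.258% were called higher. Hist2h2ab had 4.94, 5.27, 4.51 and 4.64 CPM in the day 7 libraries, against 1.6, 3.19, 1.76 and 2.50 CPM in the naive libraries, and lost its call without any one of day 7 replicates 1, 2, 3 and 4 or naive replicates 1, 3 and 4 (adjusted p from 0.0504 to 0.154), in limma voom (0.0842), in the fit of the knock-out groups alone (0.213) and with sets of library numbers as a block (0.0632). Hist2h2bb had 4.89, 9.32, 5.66 and 3.76 CPM at day 7, against 1.52, 2.27, 3.71 and 2.45 CPM in naive cells, and lost its call without any one of day 7 replicates 2 and 3 or naive replicates 1, 2 and 4 (adjusted p from 0.0738 to 0.165), in limma voom (0.22), without robust estimation (0.0672), in the fit of the knock-out groups alone (0.183) and with sets of library numbers as a block (0.0758). Their mRNAs carry no poly(A) tail, and the kit used makes libraries from total RNA.

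Further called genes that no list held were also chosen after their values were seen. Irs2, an adaptor of insulin receptors, had 26, 15.7, 21.6 and 26.7 CPM in the day 7 libraries, against 15.3, 14.3, 12.6 and 15.2 CPM in the naive libraries. Cebpb, a transcription factor gene, had 3.70, 2.82, 4.76 and 3.14 CPM at day 7, against 2.25, 1.63, 1.82 and 1.12 CPM in naive cells. Mthfd2, of mitochondrial folate metabolism, had 35.8, 44.2, 37.0 and 35.4 CPM in the day 7 libraries, against 28.6, 26.4, 26.6 and 27.9 CPM in the naive libraries. Tnfsf8, the ligand of CD30, had 44, 53.7, 45.2 and 45.7 CPM at day 7, against 35.5, 33.4, 28.9 and 37.0 CPM in naive cells. Hsd11b1, which regenerates active glucocorticoid, had 60.3, 67.9, 48.3 and 63.5 CPM in the day 7 libraries, against 72.7, 85.9, 85.6 and 74.4 CPM in the naive libraries. In each of these 5 genes the day 7 and naive libraries did not overlap, as in 68 of the 70 called genes. Irs2 lost its call without any one knock-out library except day 7 replicate 2 (adjusted p from 0.058 to 0.126). Mthfd2 lost it without any one except day 7 replicates 1 and 4 (0.0556 to 0.101). Cebpb lost it without day 7 replicate 1 or 3 or naive replicate 2, 3 or 4 (0.0812 to 0.184). Tnfsf8 lost it without day 7 replicate 2 or naive replicate 2 or 3, and Hsd11b1 without day 7 replicate 1 or 3 or naive replicate 2 or 3. All 5 calls were also lost in limma voom and in the fit of the knock-out groups alone.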
